A study of Homo sapiens with 12 samples.

Results

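The factors that cut, polyadenylate and terminate RNA polymerase II (Pol II) transcripts were examined as 34 genes, chosen by symbol from a list of the machinery that works in parallel with Integrator. All 34 were found among the 60583 genes of the deposited tables, on 17 chromosomes, with spans from 4.11 to 113.48 kb and a median of 39.9 kb. The measure was TT-seq, in which RNA made during a brief exposure of living cells to 4-thiouridine is captured and sequenced, so that the reads report transcription in progress and not the stock of mRNA or protein. The cells were U2OS, a human osteosarcoma line, in 4 groups of 3 libraries, all taken 48 hours after transfection. U2OS was transfected with siCtrl, the control, or with siINTS11, which targets INTS11, the RNA-cutting subunit of Integrator. U2OS-AsiSI received the same siRNAs, carried the restriction enzyme AsiSI joined to an oestrogen receptor domain (AsiSI-ER), and was given 4-hydroxytamoxifen (OHT) for 1 hour, which lets the enzyme reach and cut DNA in the nucleus. Every U2OS-AsiSI library had OHT and none of the U2OS libraries is labelled with it, so the line, the drug and the DNA breaks cannot be told apart. The labels do not say whether U2OS-AsiSI is 1 clone or whether replicates came from separate cultures, so p-values measure the spread between libraries, which may be technical.

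Most Pol II transcripts end when a complex reads the poly(A) signal in the new RNA, cuts the RNA a little downstream, adds a poly(A) tail to the cut end and lets an exonuclease chase the polymerase until it leaves the DNA. The cut is made by CPSF3, and Integrator does its own cutting with INTS11, a relative of CPSF3 that works with INTS9, a relative of CPSF2. Replication-dependent histone transcripts use the same nuclease but get no poly(A) tail, since a stem-loop bound by SLBP and the U7 small nuclear ribonucleoprotein replace the poly(A) signal.

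Library totals ran from 20704611 to 38065726 counts, and the 34 genes took 0.309% to 0.332% of them. Levels are CPM, the count of a gene relative to the size of its library, adjusted by the trimmed mean of M-values (TMM), a factor that allows for the make-up of each library and lay between 0.9 and 1.12. INTS11 itself, tested first, had 10.1, 8.88 and 10.1 CPM in U2OS siCtrl and 7.86, 7.07 and 7.19 CPM in U2OS siINTS11, or -0.42 as log2 fold change (SE 0.09, edgeR adjusted p 6.08e-05). In U2OS-AsiSI it had 9.64, 11 and 9.83 CPM under siCtrl and 9.01, 9.33 and 9.49 CPM under siINTS11. Its log2 fold change there, -0.13 (SE 0.08, edgeR adjusted p 0.172), did not pass the threshold of 0.05 and turned to 0.06 when library totals alone set the scale. An siRNA acts on finished mRNA, so these nascent reads do not measure the knockdown directly. Of the defining markers, the summed mesenchymal genes (VIM, RUNX2, SPARC, COL1A2 and FN1) lay between 678 and 1010 CPM, although COL1A2 had at most 0.459 CPM. The summed markers of 4 other cell types lay between 11.2 and 18 CPM, with HBB at 0 in every library. The mesenchymal sum was lower, and the other sum higher, in every siINTS11 library than in every siCtrl library of its line. RUNX2 (log2 fold change -0.84 in U2OS and -1.07 in U2OS-AsiSI) fell by more than the rest of its list, in which VIM rose in U2OS-AsiSI (0.21, edgeR adjusted p 0.00162) and SPARC had -0.25 and -0.02, and PECAM1 (1.65 and 1.89) led the other markers. The part of these markers in the results was not tested. In bulk libraries fewer cells of a type and less RNA per cell cannot be told apart.

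Levels along the genes, as scaled CPM per kb of gene span, put SCAF4 first with 4.92 on average over 12 libraries, from 4.51 to 5.21. SCAF4 and its relative SCAF8 bind the Pol II tail and keep early poly(A) sites from being used. CPSF7 (4.67), CSTF2T (4.6) and CSTF1 (4.36) followed, and the ranges of these first 4 genes overlapped. SCAF8 came next at 3.41, with its highest library (3.75) under the lowest of the first 4 genes (4, of CSTF2T). Below it the order was gradual, from CPSF4 (2.95), XRN2 (2.82), NUDT21 (2.75) and PCF11 (2.75) down to CTDP1 (0.901), and neighbouring genes overlapped in their ranges. LSM11 (0.656) lay below CTDP1 without overlap. PPP1R10 (0.279, from 0.223 to 0.394) and CPSF1 (0.224, from 0.126 to 0.373) lay well under LSM11, whose lowest library had 0.57. Within a group the coefficient of variation of a member's level had a median of 2.76%, and it was 5.5% for PPP1R10 and 17.7% for CPSF1.

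**Figure D1:**
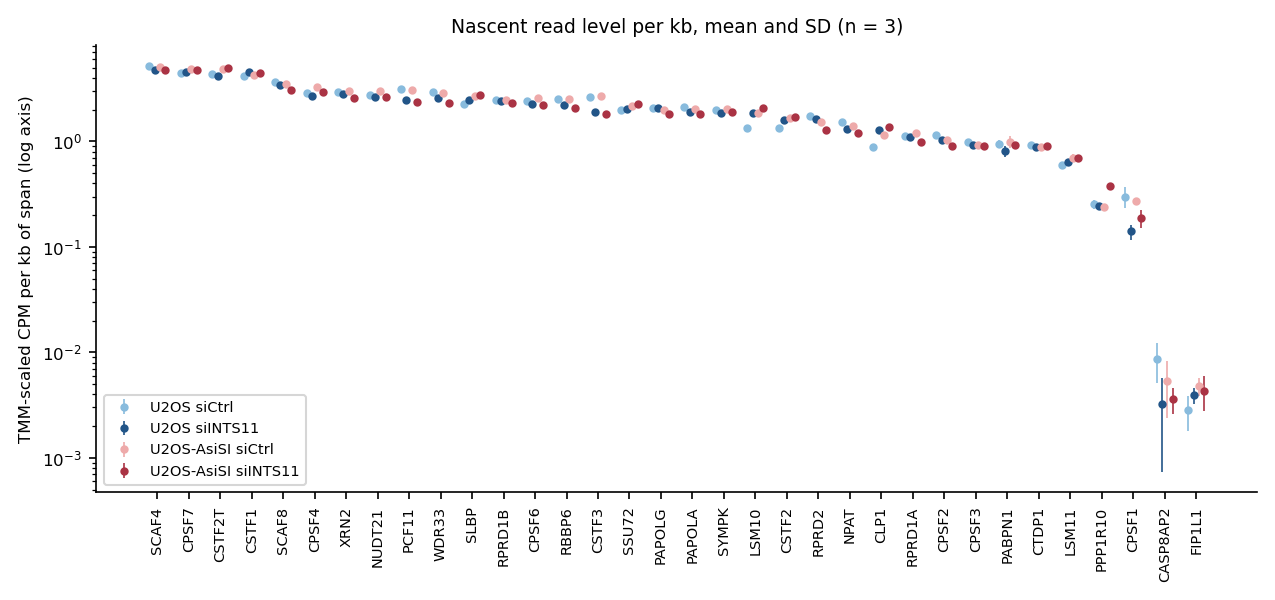
Level of each of the 34 genes as TMM-scaled CPM per kb of gene span (log axis), in order of the mean over all 12 libraries. Points are group means of 3 libraries in the 4 groups and bars are SDs. The level falls slowly from SCAF4 (4.92) to LSM11 (0.656), then drops to PPP1R10, CPSF1, CASP8AP2 and FIP1L1.

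For a few genes the count is no good measure of transcription. FIP1L1, the CPSF subunit that recruits poly(A) polymerase, had 4 to 14 reads per library, and 99.8% of its span is shared on the same strand with AC058822.1, a transcript unit of 917.43 kb that had 363 to 633 reads. CASP8AP2, which works at histone genes, had 2 to 15 reads. PABPN1, the nuclear poly(A)-binding protein, had 104 to 163 reads, and 83.3% of its span is shared with BCL2L2-PABPN1, which had 362 to 559. CLP1 shares 29.5% and PCF11 14.4% of their spans with another gene on the same strand. Such overlaps touched 9 of the 34 genes, and overlaps on the opposite strand touched 23. Genes on the opposite strand cover 100% of the span of CPSF4 and 34.6% of that of CSTF3. CSTF2T lies wholly inside PRKG1, a gene on the other strand, and had 0.116 to 0.159 reads per base against 0.0016 to 0.0039 for PRKG1. These neighbours were looked up after the counts were seen. How the counting treated shared or opposite-strand reads is not given in the sources used here, and its part in the low counts was not tested.

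Promoters of 5 genes among those the results turn on are shown. CSTF3 and PCF11 fell and CLP1 and LSM10 rose in both lines, and PPP1R10 rose in U2OS-AsiSI. The LSM10 call in U2OS-AsiSI was lost in 9 of 13 alternatives, and CPSF1, which also fell in both lines, is not shown. Each is the 250 bases before the RefSeq start (GRCh38.p14), 5′ to 3′ on the gene's strand. Capitals mark the motifs, or their reverse complements: CCAAT for the CCAAT box, GGGCGG for the GC box, CCGGAAG for ETS factors and TATAAA for the TATA box.
CSTF3 (chr11:33161481-33161730, minus strand): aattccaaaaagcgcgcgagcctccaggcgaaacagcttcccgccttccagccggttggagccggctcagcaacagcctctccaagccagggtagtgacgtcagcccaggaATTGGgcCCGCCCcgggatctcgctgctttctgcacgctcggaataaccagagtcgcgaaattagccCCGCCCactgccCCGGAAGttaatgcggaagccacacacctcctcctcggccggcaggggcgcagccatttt
PCF11 (chr11:83156881-83157130, plus strand): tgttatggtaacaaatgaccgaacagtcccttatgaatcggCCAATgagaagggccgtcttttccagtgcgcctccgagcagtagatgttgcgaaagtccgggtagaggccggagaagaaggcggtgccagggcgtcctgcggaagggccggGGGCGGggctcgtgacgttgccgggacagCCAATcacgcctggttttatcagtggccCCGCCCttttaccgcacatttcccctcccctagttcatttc
CLP1 (chr11:57657512-57657761, plus strand): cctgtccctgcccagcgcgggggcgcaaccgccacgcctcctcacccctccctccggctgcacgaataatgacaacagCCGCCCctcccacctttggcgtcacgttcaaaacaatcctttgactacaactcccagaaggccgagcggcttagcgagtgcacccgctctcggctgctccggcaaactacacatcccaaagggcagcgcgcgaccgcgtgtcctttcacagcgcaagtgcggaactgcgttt
LSM10 (chr1:36397909-36398158, minus strand): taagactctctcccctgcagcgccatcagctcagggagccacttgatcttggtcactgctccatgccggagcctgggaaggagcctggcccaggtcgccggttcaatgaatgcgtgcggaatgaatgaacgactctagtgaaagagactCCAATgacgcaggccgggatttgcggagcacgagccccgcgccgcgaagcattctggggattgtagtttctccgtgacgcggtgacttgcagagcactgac
PPP1R10 (chr6:30617244-30617493, minus strand): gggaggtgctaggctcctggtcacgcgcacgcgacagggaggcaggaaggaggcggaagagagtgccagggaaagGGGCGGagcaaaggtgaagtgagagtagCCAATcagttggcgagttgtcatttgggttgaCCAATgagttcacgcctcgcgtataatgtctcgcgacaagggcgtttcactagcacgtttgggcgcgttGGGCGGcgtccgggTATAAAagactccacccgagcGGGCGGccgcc
For LSM10 the RefSeq start is also the start of the gene in the count tables. The distance between these starts was 143 bp for PCF11, 891 bp for CSTF3, 1369 bp for PPP1R10 and 8770 bp for CLP1, so for the last 3 the window lies inside the counted span.

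Among the 32 members with a RefSeq promoter, a GC box was in 21 (65.6%, against 46.2% of 27305 genes), a CCAAT box in 14 (43.8%, against 37%) and the ETS motif in 5 (15.6%, against 10.2%). The 5 with an ETS motif were CPSF3, NUDT21, CPSF7, CSTF2 and CSTF3. PPP1R10 was the 1 member with a TATA box (3.12%, against 13% of all genes), at position -32 from the start, beside 3 GC boxes and 2 CCAAT boxes. The recognition site of AsiSI, GCGATCGC, was in 0 of 32 promoters of 300 bases, against 0.209% of 27305 genes. At so low a share, 0 among 32 promoters says little about the members. The site was also in 0 of 34 members' annotated transcripts, and introns were not searched. A match is a run of letters and not a measured binding site.

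After siINTS11 more members fell than rose, and the falls were small. In U2OS 18 of 32 tested members fell (56.2%, against 32.4% of the 20687 genes tested) and 4 rose (12.5%, against 34.5%). In U2OS-AsiSI 17 of 33 fell (51.5%, against 32.6% of 20441 genes) and 3 rose (9.1%, against 35.4%). The median log2 fold change of the members was -0.11 in U2OS and -0.1 in U2OS-AsiSI, against 0.02 and 0.03 for all genes tested. The typical size was modest: the median of the absolute log2 fold changes was 0.12 and 0.16 for the members, against 0.33 and 0.35 for all genes, and CPSF1 in U2OS was the 1 member past a 2-fold change. Both lines were sampled in separate libraries, and 15 members passed in both, which is 68.2% of the U2OS calls and 75% of the U2OS-AsiSI calls. Of all genes tested in both lines, 84.2% of the U2OS calls and 83.4% of the U2OS-AsiSI calls passed in both, so the members' overlap was no larger than that of genes at large. Of these 15, 13 were lower in both, CLP1 and LSM10 were higher in both, and 0 went opposite ways (0.526% of the genes called in both did). In 9 of the 15 (CPSF1, CPSF2, WDR33, CSTF3, PCF11, CLP1, RBBP6, PAPOLA and NPAT) both calls held without any 1 library, and CPSF4, NUDT21, CPSF6, SCAF8, RPRD2 and LSM10 lost 1 of their 2 calls without a library named below. CPSF7, CSTF1, CSTF2T, SSU72 and LSM11 passed in neither line.

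The direction of the many small changes rests on the scale. When library totals alone set it, the all-gene median shifted from 0.02 to 0.22 in U2OS and from 0.03 to 0.22 in U2OS-AsiSI. The members' calls became 16 higher and 3 lower in U2OS and 15 higher and 4 lower in U2OS-AsiSI. Genes at large moved the same way. Higher calls then made up 84.2% of the members' calls in U2OS, against 74.3% of all calls. In U2OS-AsiSI they made up 78.9%, against 72.4%. The members' median minus that of all genes was -0.12 in U2OS and -0.13 in U2OS-AsiSI, with 26 of 32 and 25 of 33 members under the all-gene median. A change of scale moves every gene alike, so this distance is the same under each scale by construction. Under all 3 scalings tried, CPSF1, CSTF3 and PCF11 were called lower in both lines and CLP1 was called higher in both. CSTF2 and LSM10 were also called higher in U2OS under all 3, as was PPP1R10 in U2OS-AsiSI, and WDR33 was called lower in U2OS-AsiSI. Calls of other members are stated below for TMM scaling.

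**Figure D2:**
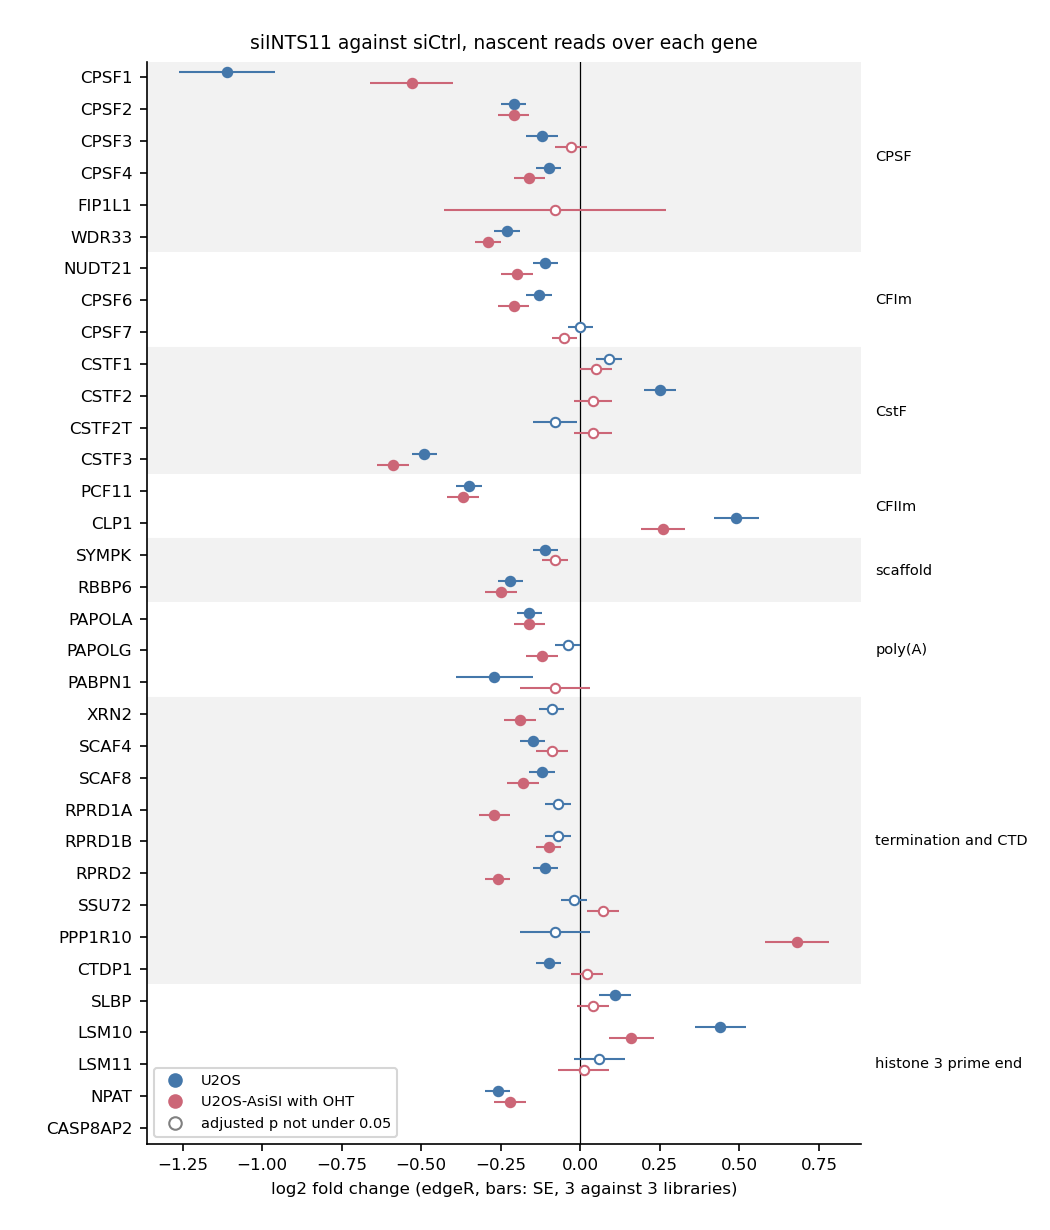
Log2 fold change of each gene after siINTS11 against siCtrl in U2OS and in U2OS-AsiSI with OHT, by role; bars are SEs, 3 against 3 libraries, and open points missed an adjusted p of 0.05. Most points lie left of 0, CLP1 and LSM10 lie right of it in both lines, and PPP1R10 stands apart at 0.68 in U2OS-AsiSI; untested genes have no point.

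The CPSF complex reads the AAUAAA signal and makes the cut. In U2OS all 5 tested subunits fell (against 32.4% of all genes), and in U2OS-AsiSI 4 of 6 did (against 32.6%). With library totals 1 fell in U2OS, and 2 fell and 1 rose in U2OS-AsiSI. The U2OS calls of CPSF3 and CPSF4 also turned on single libraries, as given below. CPSF1, the large scaffold subunit on chromosome 8, had 6.01, 3.85 and 4.62 CPM in U2OS siCtrl and 2.02, 2.68 and 2.08 CPM in U2OS siINTS11. It had 4.07, 4.39 and 4.6 CPM in U2OS-AsiSI siCtrl and 2.41, 3.04 and 3.56 CPM in U2OS-AsiSI siINTS11. In each line every siINTS11 library was below every siCtrl library. The log2 fold change of CPSF1 was -1.11 in U2OS (SE 0.15, a fold of 0.46, edgeR adjusted p 7.58e-08) and -0.53 in U2OS-AsiSI (SE 0.13, a fold of 0.69, edgeR adjusted p 0.000821). These values rest on 65 to 165 reads per library. The nuclease CPSF3 changed little, from 48.4 ± 0.486 to 45.5 ± 1.72 CPM in U2OS (SD, n = 3; log2 fold change -0.12, SE 0.05, edgeR adjusted p 0.019), and its log2 fold change of -0.03 in U2OS-AsiSI did not pass. The U2OS call of CPSF3 was lost in 6 of 13 alternatives, those without siCtrl replicate 2 or 3 or siINTS11 replicate 3 among them (-0.15 to 0.08). CPSF2, the inactive partner of the nuclease, had a log2 fold change of -0.21 in each line.

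WDR33, which contacts the AAUAAA signal, had 317, 317 and 336 CPM in U2OS siCtrl and 284, 275 and 288 CPM in U2OS siINTS11. In U2OS-AsiSI it had 321, 306 and 314 CPM under siCtrl and 262, 255 and 251 CPM under siINTS11. The groups were apart in both lines, with log2 fold changes of -0.23 (SE 0.04, edgeR adjusted p 5.55e-06) and -0.29 (SE 0.04, edgeR adjusted p 1.26e-06). CPSF4, a zinc-finger subunit that also contacts the signal, had log2 fold changes of -0.1 and -0.16, with edgeR adjusted p of 0.0459 in U2OS and 0.0047 in U2OS-AsiSI. The first was lost in 12 of 13 alternatives, each of the 6 left-out libraries among them (-0.12 to 0.1), and the second with library totals only. In the CFIm complex, which binds UGUA upstream of the cut and steers the choice of poly(A) site, NUDT21 and CPSF6 fell in both lines (log2 fold changes from -0.21 to -0.11), while CPSF7 had 0 in U2OS and -0.05 in U2OS-AsiSI. In U2OS the call of NUDT21 was lost without siCtrl replicate 2 or siINTS11 replicate 2, and that of CPSF6 without siINTS11 replicate 2. With library totals none of the CFIm genes fell, and CPSF7 rose in both lines.

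The CstF complex binds the GU-rich RNA past the cut site, and its genes went different ways. CSTF3, the subunit that holds the complex together (ENSG00000176102, chromosome 11, 33077188 to 33162371, minus strand, 22 exons), had 215, 224 and 231 CPM in U2OS siCtrl and 162, 162 and 163 CPM in U2OS siINTS11. In U2OS-AsiSI it had 236, 224 and 235 CPM under siCtrl and 159, 155 and 147 CPM under siINTS11. All 6 siINTS11 libraries lay below all 6 siCtrl libraries. The log2 fold change of CSTF3 was -0.49 in U2OS (SE 0.04, a fold of 0.71, edgeR adjusted p 1.15e-14) and -0.59 in U2OS-AsiSI (SE 0.05, a fold of 0.67, edgeR adjusted p 1.28e-12). Its neighbour in the complex, the RNA-binding subunit CSTF2 on chromosome X, rose in U2OS from 27.1, 27.2 and 27.7 CPM to 33.8, 32.3 and 33.2 CPM (log2 fold change 0.25, SE 0.05, edgeR adjusted p 6.38e-05). In U2OS-AsiSI, CSTF2 had 32.8, 35.2 and 34.3 CPM under siCtrl and 37.5, 34.3 and 32.7 CPM under siINTS11, and the groups overlapped (log2 fold change 0.04, edgeR adjusted p 0.575). For CSTF2 the lines differed in this effect by -0.24 (SE 0.07), which missed the threshold with an edgeR adjusted p of 0.0583. CSTF1 had log2 fold changes of 0.09 and 0.05 and CSTF2T, an intronless copy of CSTF2, had -0.08 and 0.04, and none of these passed.

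CFIIm has 2 members here, PCF11 and CLP1, and they moved in opposite directions in both lines. PCF11, which binds the Pol II tail and helps to dislodge the polymerase (ENSG00000165494, chromosome 11, 83156988 to 83187451, plus strand, 16 exons), had 96.3, 95.1 and 92.5 CPM in U2OS siCtrl and 73.7, 77.7 and 75.7 CPM in U2OS siINTS11. In U2OS-AsiSI it had 91.5, 90.5 and 96.4 CPM under siCtrl and 70.1, 76.7 and 68.6 CPM under siINTS11. The log2 fold changes of PCF11 were -0.35 (SE 0.04, edgeR adjusted p 3.96e-10) and -0.37 (SE 0.05, edgeR adjusted p 1.13e-07), a fold of 0.78 in each line. CLP1, an RNA kinase that also acts on tRNA (ENSG00000172409, chromosome 11, 57648992 to 57661865, plus strand, 3 exons), had 11, 11.6 and 11.8 CPM in U2OS siCtrl and 16.9, 16.2 and 16.1 CPM in U2OS siINTS11. In U2OS-AsiSI it had 14.3, 14.8 and 15.3 CPM under siCtrl and 16.9, 18.1 and 18.2 CPM under siINTS11. The log2 fold changes of CLP1 were 0.49 (SE 0.07, a fold of 1.4, edgeR adjusted p 8.16e-08) and 0.26 (SE 0.07, a fold of 1.2, edgeR adjusted p 0.00093). For both genes the siRNA groups did not overlap in either line. The RefSeq start of CLP1 lies 8770 bp inside its counted span of 12.87 kb, and 29.5% of that span is shared with another gene on the same strand. Reads before that start are therefore counted for CLP1, and their part in its rise was not tested. PCF11 and CSTF3 are known to carry poly(A) sites within introns through which their proteins limit their own mRNA, and counts over the whole gene do not part reads before such a site from reads after it.

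**Figure D3:**
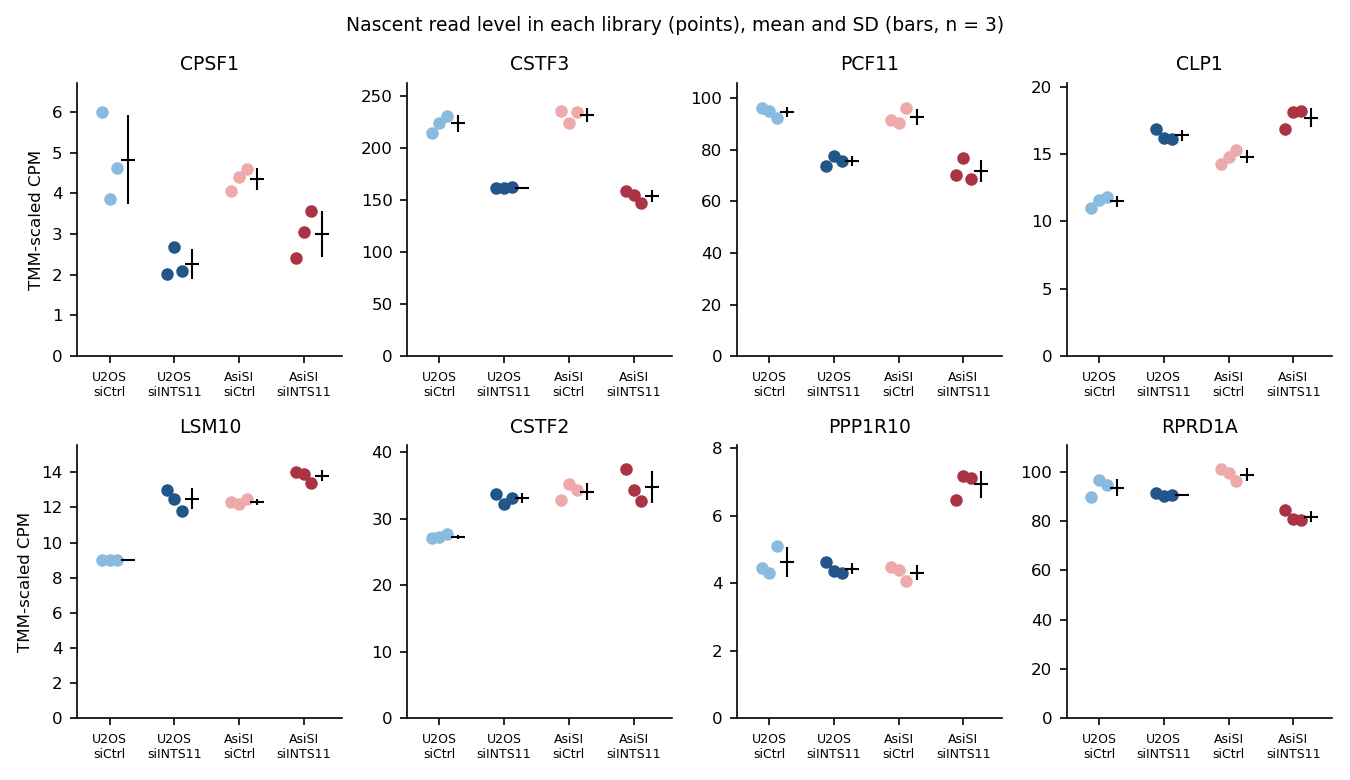
TMM-scaled CPM (axes from 0) of 8 genes in each library of the 4 groups; points are libraries and the crosses beside them are means with SDs (n = 3). CPSF1, CSTF3 and PCF11 are lower, and CLP1 and LSM10 higher, in the siINTS11 libraries of both lines, and PPP1R10 is high (6.46 to 7.18 CPM) in the U2OS-AsiSI siINTS11 libraries.

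Of the scaffold and associated proteins, RBBP6, a ring-finger protein needed for the cut, had log2 fold changes of -0.22 in U2OS and -0.25 in U2OS-AsiSI, both past the threshold. SYMPK, the scaffold shared with the histone cleavage complex, fell by 0.11 on the log2 scale in U2OS (edgeR adjusted p 0.0101) and had -0.08 in U2OS-AsiSI (edgeR adjusted p 0.099). The U2OS call of SYMPK was lost without siCtrl replicate 3, and with library totals SYMPK was called higher in both lines. PAPOLA, the main nuclear poly(A) polymerase, had -0.16 in both lines, and its relative PAPOLG had -0.04 in U2OS and -0.12 in U2OS-AsiSI, of which the second passed but was lost in 5 of 13 alternatives, those without siCtrl replicate 1 or 2 or siINTS11 replicate 3 among them (-0.16 to 0.07). PABPN1 passed in U2OS, with 5.06, 4.61 and 4.27 CPM under siCtrl and 3.47, 4.38 and 3.93 CPM under siINTS11, but these groups overlapped. The change, -0.27 on the log2 scale (SE 0.12, edgeR adjusted p 0.0357), lost the call in 7 of 13 alternatives, among them those without replicate 1 or 2 of siCtrl and without replicate 1 or 3 of siINTS11, with values from -0.36 to -0.07. BCL2L2-PABPN1, which holds most of the PABPN1 span, had 0.17 there as log2 fold change (SE 0.07, edgeR adjusted p 0.0281).

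Of the 9 termination and Pol II tail factors, 4 fell in U2OS (SCAF4, SCAF8, RPRD2 and CTDP1), and in U2OS-AsiSI 5 fell and 1 rose. Among all genes tested 32.4% fell in U2OS, and 32.6% fell and 35.4% rose in U2OS-AsiSI. In U2OS the call of SCAF8 was lost without siCtrl replicate 3 or siINTS11 replicate 2, and in U2OS-AsiSI that of RPRD1B (-0.1) without siCtrl replicate 1 or 2 or siINTS11 replicate 2 or 3. With library totals 7 of the 9 were called higher in U2OS and 5 in U2OS-AsiSI, and no fall was called. On that scale 74.3% and 72.4% of the calls over all genes were higher. XRN2, the exonuclease that chases Pol II, had 247, 251 and 256 CPM in U2OS siCtrl and 234, 238 and 252 CPM in U2OS siINTS11, which overlapped (log2 fold change -0.09, SE 0.04, edgeR adjusted p 0.0531). In U2OS-AsiSI it had 272, 249 and 253 CPM under siCtrl and 229, 231 and 215 CPM under siINTS11 (log2 fold change -0.19, SE 0.05, edgeR adjusted p 0.000541). RPRD1A, RPRD1B and RPRD2 bind the Pol II tail, and RPRD1A and RPRD1B help to remove its phosphates. RPRD1A had 101, 99.4 and 96.1 CPM in U2OS-AsiSI siCtrl and 84.4, 80.8 and 80.3 CPM in U2OS-AsiSI siINTS11 (log2 fold change -0.27, SE 0.05, edgeR adjusted p 6.35e-06), and with library totals the value was -0.08 and lost the call. RPRD2 had log2 fold changes of -0.11 in U2OS and -0.26 in U2OS-AsiSI, both past the threshold under TMM scaling, and the first was lost without siCtrl replicate 2 or 3 or siINTS11 replicate 1. The tail phosphatase SSU72 passed in neither line (-0.02 and 0.07), and CTDP1, another tail phosphatase, had -0.1 in U2OS (edgeR adjusted p 0.0318) and 0.02 in U2OS-AsiSI (edgeR adjusted p 0.669). The U2OS call of CTDP1 was lost in 8 of 13 alternatives, with every left-out library but siINTS11 replicate 1 among them, and turned to a call of 0.1 with library totals.

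PPP1R10 encodes PNUTS, which directs protein phosphatase 1 to Pol II and the elongation factor SPT5 near poly(A) sites (ENSG00000204569, chromosome 6, 30600413 to 30618612, minus strand, 20 exons). It had 4.44, 4.3 and 5.11 CPM in U2OS siCtrl, 4.62, 4.35 and 4.31 CPM in U2OS siINTS11 and 4.48, 4.39 and 4.06 CPM in U2OS-AsiSI siCtrl. In U2OS-AsiSI siINTS11 it had 6.46, 7.18 and 7.12 CPM. These last 3 libraries lay above the other 9, which overlapped among the groups. The log2 fold change of PPP1R10 after siINTS11 was 0.68 in U2OS-AsiSI (SE 0.1, a fold of 1.61, edgeR adjusted p 8.72e-07) and -0.08 in U2OS (SE 0.11, edgeR adjusted p 0.515). The count behind each value was 111 to 208 reads.

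The histone branch also split. LSM10, 1 of 2 Sm-like proteins found only in the U7 particle (ENSG00000181817, chromosome 1, 36391238 to 36397908, minus strand, 2 exons), had 9.03, 8.99 and 8.99 CPM in U2OS siCtrl and 13, 12.5 and 11.8 CPM in U2OS siINTS11. The log2 fold change was 0.44 (SE 0.08, a fold of 1.36, edgeR adjusted p 3.98e-06), with no overlap. In U2OS-AsiSI, LSM10 had 12.3, 12.2 and 12.5 CPM under siCtrl and 14, 13.9 and 13.4 CPM under siINTS11, again apart. That change, 0.16 on the log2 scale (SE 0.07, edgeR adjusted p 0.0413), lost the call in 9 of 13 alternatives, each of the 6 left-out libraries among them. Over all 13 it ran from 0.13 to 0.35. LSM11, the other U7 Sm-like protein, had 0.06 and 0.01, and neither passed. SLBP, the stem-loop binder, rose in U2OS from 43.9 ± 1.53 to 48.6 ± 1.87 CPM (SD, n = 3; log2 fold change 0.11, SE 0.05, edgeR adjusted p 0.0287). It lost the call in 6 of 13 alternatives, including those without siCtrl replicate 3 or siINTS11 replicate 1, with values over all 13 from 0.08 to 0.31. NPAT, the activator of histone gene transcription, fell by 0.26 on the log2 scale in U2OS, with 93.4, 105 and 105 CPM under siCtrl and 84.8, 84 and 89.8 CPM under siINTS11 (SE 0.04, edgeR adjusted p 1.5e-06). Its log2 fold change was -0.22 in U2OS-AsiSI (SE 0.05, edgeR adjusted p 0.0001), and with library totals the 2 values became -0.06 and -0.04 and neither passed.

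Direction followed gene length to a degree. Of the tested members shorter than the median span of 39.9 kb, 4 of 17 rose and 7 fell in U2OS, and 3 rose and 6 fell in U2OS-AsiSI. Of all genes this short, 41.1% rose and 18.8% fell in U2OS, and 43.2% rose and 18.6% fell in U2OS-AsiSI. Of those longer than it, 11 of 15 fell in U2OS (73.3%, against 49.9% of all genes this long) and 11 of 16 in U2OS-AsiSI (68.8%, against 50.4%), and under TMM scaling every call among them was a fall. With library totals 8 of the longer members were called higher and 1 lower in U2OS, and 5 higher and 2 lower in U2OS-AsiSI. All genes this long were then called higher at 42.2% and lower at 30.5% in U2OS, and at 39% and 33.3% in U2OS-AsiSI. Spearman's rho between span and log2 fold change was -0.35 over 32 members in U2OS and -0.54 over 33 in U2OS-AsiSI, against -0.26 and -0.31 over all genes with a span. These are correlations across genes that share libraries and are given as a description. CPSF1 (16.11 kb) and PCF11 (30.46 kb) were short genes that fell, and the longest member, RPRD2 (113.48 kb), fell less than CSTF3 (85.18 kb).

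**Figure D4:**
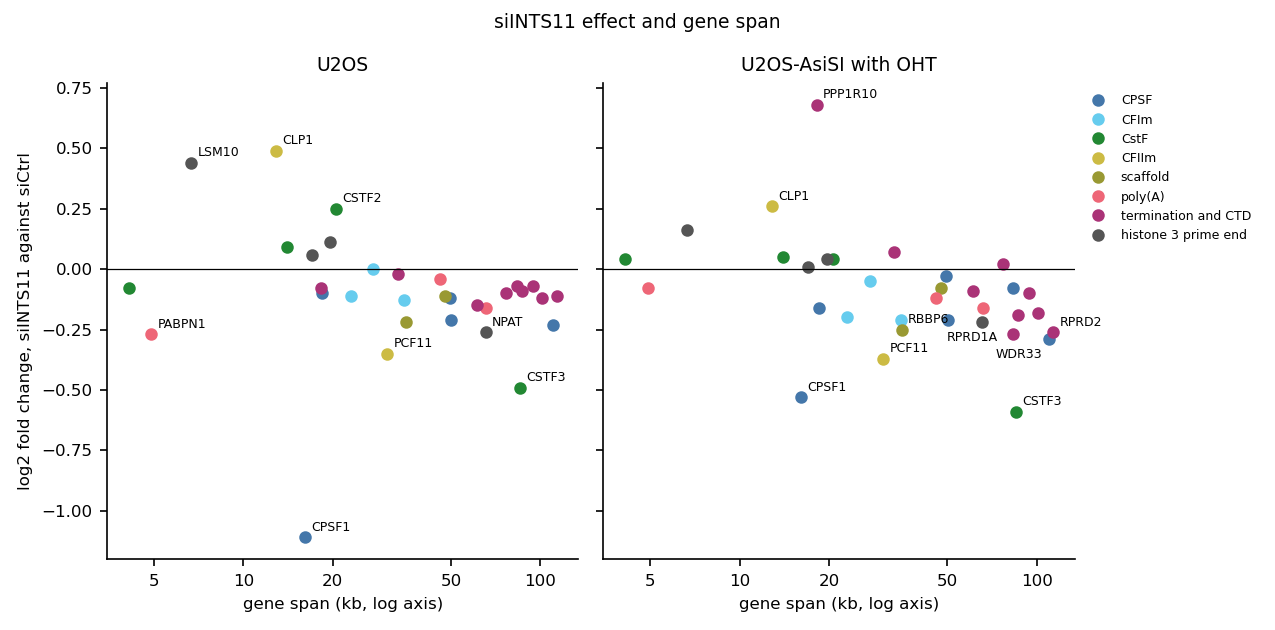
Log2 fold change after siINTS11 against gene span (kb, log axis) under TMM scaling, each point a tested gene coloured by role, in U2OS and in U2OS-AsiSI with OHT. Points above 0 are almost all at spans under 39.9 kb, long genes lie mostly below 0, and CPSF1 at 16.11 kb is the lowest point in U2OS.

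The siINTS11 effect itself was then compared between the lines, as an interaction over all 12 libraries. Of 34 tested members, 1 was higher in U2OS-AsiSI than in U2OS (0.762% of 21521 genes were) and 1 was lower (3.1% of genes). The first was PPP1R10, with a difference of 0.73 (SE 0.14, edgeR adjusted p 0.00378). This call held in all 18 alternatives that gave an adjusted p, with differences from 0.69 to 0.8 and edgeR adjusted p from 0.000251 to 0.0159. DESeq2 on the full data gave it 0.76 (SE 0.19) with an unadjusted p of 7.53e-05, and no adjusted p. Its neighbours MRPS18B, which starts head to head with it, and ABCF1 were chosen after the values were seen. MRPS18B, with only 28 to 56 reads per library, rose in U2OS-AsiSI by 0.46 on the log2 scale (SE 0.19, edgeR adjusted p 0.0283) and had 0.4 in U2OS (SE 0.2, edgeR adjusted p 0.0791), a difference of 0.03 (SE 0.28). ABCF1 had a difference of 0.26 (SE 0.12, edgeR adjusted p 0.243), and under siINTS11 it was higher in U2OS-AsiSI than in U2OS by 0.36 on the log2 scale (SE 0.09, edgeR adjusted p 0.0012), the same direction as PPP1R10. The second was RPRD1A, with -0.23 (SE 0.06, edgeR adjusted p 0.0225). It lost the call in 14 of 19 alternatives, with values from -0.25 to -0.16 and edgeR adjusted p up to 0.18. Among the left-out libraries, the call stayed only without U2OS siCtrl replicate 2, U2OS-AsiSI siCtrl replicate 3 or U2OS-AsiSI siINTS11 replicate 1. In U2OS, RPRD1A had 89.7, 96.5 and 94.5 CPM under siCtrl and 91.3, 90.4 and 90.8 CPM under siINTS11. CPSF1 had a difference of 0.54 (SE 0.22, edgeR adjusted p 0.161), CLP1 -0.26 (SE 0.09, edgeR adjusted p 0.108) and LSM10 -0.31 (SE 0.1, edgeR adjusted p 0.0695), so a different size of effect in the 2 lines was not shown for them.

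The lines were also compared under each siRNA, in the same libraries as above, so these values are not independent of the siINTS11 effects. Under siCtrl 8 of 33 members were higher in U2OS-AsiSI (24.2%, against 17.8% of 19935 genes) and 3 were lower (9.1%, against 17.2%). With library totals the split was 15 higher and 1 lower, with the median of all genes at 0.07 in place of 0.01. Higher calls then made up 93.8% of the members' calls and 67.4% of all calls. The 8 were the histone factors LSM10 (0.45), SLBP (0.27) and LSM11 (0.25), CLP1 (0.37), CSTF2 (0.32), CPSF4 (0.21), CPSF7 (0.13) and NUDT21 (0.12), as log2 differences. LSM10 gave 9.03, 8.99 and 8.99 CPM in U2OS against 12.3, 12.2 and 12.5 CPM in U2OS-AsiSI (SE 0.08, edgeR adjusted p 3.39e-05). CLP1 gave 11, 11.6 and 11.8 CPM against 14.3, 14.8 and 15.3 CPM (SE 0.07, edgeR adjusted p 0.000179). CSTF2 gave 27.1, 27.2 and 27.7 CPM against 32.8, 35.2 and 34.3 CPM (SE 0.05, edgeR adjusted p 2.35e-05). For these 3 genes the lines did not overlap, and for LSM10 and CSTF2 the U2OS-AsiSI siCtrl libraries lay within or near the range of the U2OS siINTS11 libraries. NUDT21 lost the call in 8 of 13 alternatives, those without U2OS siCtrl replicate 1 or 3 or any 1 of the U2OS-AsiSI siCtrl libraries among them (0.11 to 0.18). LSM11 lost the call with DESeq2, without U2OS siCtrl replicate 2 and without U2OS-AsiSI siCtrl replicate 2 (0.18 to 0.3). The 3 lower members were RPRD2 (-0.18), CPSF2 (-0.15) and NPAT (-0.13). RPRD2 held in all 13 alternatives, CPSF2 lost the call with library totals and without U2OS siCtrl replicate 3, and NPAT lost it in 6 of 13, those without U2OS siCtrl replicate 2 or 3 or U2OS-AsiSI siCtrl replicate 3 among them, with values from -0.17 to -0.07. Without U2OS siCtrl replicate 3, 1 member was called lower.

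Under siINTS11 8 of 33 members were higher in U2OS-AsiSI (24.2%, against 22.2% of 20802 genes) and 6 were lower (18.2%, against 21.4%), shares close to those of all genes. With library totals the split was 15 higher and 2 lower, with the median of all genes at 0.06 in place of 0.01. Higher calls then made up 88.2% of the members' calls and 62.8% of all calls. PPP1R10 led with a log2 difference of 0.68 (SE 0.1, edgeR adjusted p 4.36e-07), from 4.43 ± 0.17 to 6.92 ± 0.398 CPM (SD, n = 3). CPSF1 had 0.45 (SE 0.15, edgeR adjusted p 0.0131), but its lines overlapped, and the call was lost with DESeq2 and without U2OS siINTS11 replicate 1 or 3 or U2OS-AsiSI siINTS11 replicate 3 (0.29 to 0.6). CSTF2T had 18.6, 16.4 and 16.8 CPM in U2OS and 19.6, 20.9 and 20.7 CPM in U2OS-AsiSI (0.28, SE 0.06, edgeR adjusted p 0.000452), without overlap. SSU72 (0.2), SLBP (0.19), LSM11 (0.19), LSM10 (0.18) and CPSF4 (0.15) made up the rest. LSM10 and LSM11 each lost the call in 8 of 13 alternatives, with every left-out library among them except U2OS replicate 1 for LSM10 (0.13 to 0.23) and U2OS-AsiSI replicate 1 for LSM11 (0.17 to 0.24), and CPSF4 lost it without U2OS-AsiSI replicate 3. RPRD2 was again lower, with 176, 190 and 191 CPM in U2OS and 144, 147 and 143 CPM in U2OS-AsiSI (-0.32, SE 0.04, edgeR adjusted p 6.2e-08). CPSF2 (-0.16), PAPOLG (-0.15), SCAF8 (-0.12), RPRD1A (-0.11) and WDR33 (-0.1) were the other lower members. WDR33 lost the call in 6 of 13 alternatives, those without U2OS replicate 1 or 3 or U2OS-AsiSI replicate 2 or 3 among them (-0.13 to -0.06). SCAF8 lost the call in 4 of 13 alternatives, those without replicate 3 of either line among them (-0.15 to -0.07 over all 13). RPRD1A lost it in 8 of 13, with U2OS-AsiSI replicate 1 as the only library whose absence left its call in place (-0.13 to -0.07 over all 13). Without replicate 3 of U2OS or of U2OS-AsiSI the counts were 5 higher and 3 lower. Under both siRNAs and TMM scaling every higher call was in a member shorter than 39.9 kb and every lower call in a longer one. Shorter members were called higher at 47.1% under each siRNA, against 25.4% and 31% of all genes this short. Longer members were called lower at 18.8% under siCtrl and 37.5% under siINTS11, against 30.8% and 38% of all genes this long. Under TMM scaling 8.27% and 10.8% of all longer genes were called higher. With library totals 4 longer members were called higher under siCtrl (25%, against 14.3% of all longer genes). Under siINTS11 3 were (18.8%, against 15.1%). Spearman's rho between span and log2 difference was -0.53 and -0.72 over 33 members, against -0.35 and -0.41 over all genes.

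**Figure D5:**
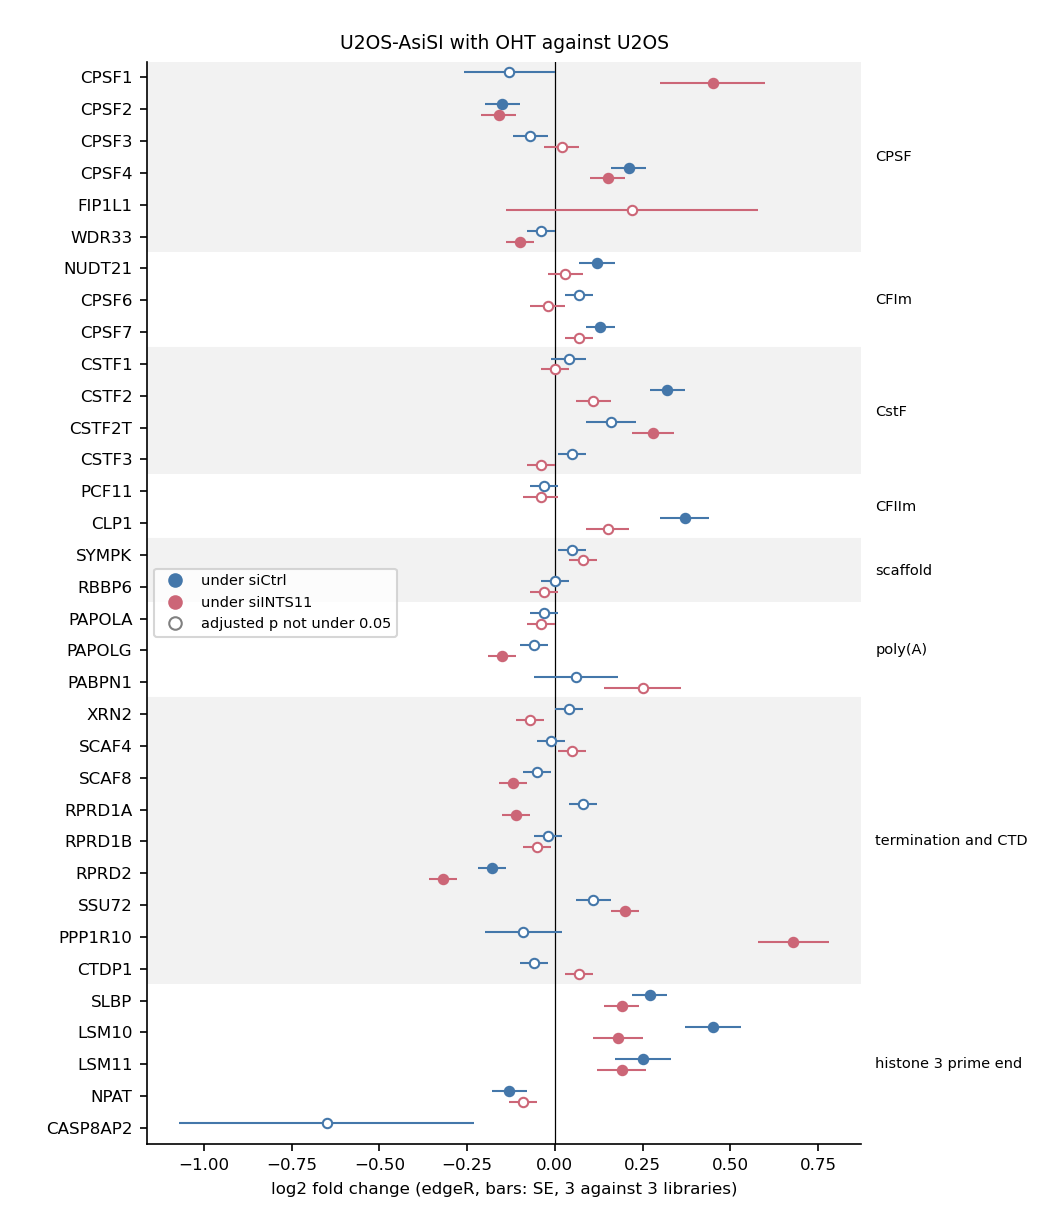
Log2 difference of each gene between U2OS-AsiSI with OHT and U2OS, under siCtrl and under siINTS11, by role; bars are SEs, 3 against 3 libraries, and open points missed an adjusted p of 0.05. Of the histone factors, SLBP, LSM10 and LSM11 lie right of 0 under both siRNAs and NPAT lies left of it (-0.13 and -0.09). CASP8AP2, tested under siCtrl only, lies at -0.65 and missed the threshold. RPRD2 lies left of 0 under both siRNAs, and PPP1R10 lies at 0.68 under siINTS11 only.

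Paralogue pairs were set side by side as the ratio of their levels per kb, given as log2 with the SD over 3 libraries. CSTF2 ran at 0.31 of CSTF2T in U2OS siCtrl (log2 ratio -1.71 ± 0.07) and 0.38 in U2OS siINTS11 (-1.38 ± 0.07), and the libraries of these 2 groups did not overlap. In U2OS-AsiSI that ratio was -1.55 ± 0.05 under siCtrl and -1.55 ± 0.15 under siINTS11. Which of the 2 is higher depends on the division by span, which is 20.57 kb with 15 exons for CSTF2 and 4.11 kb with 1 exon for CSTF2T. In CPM, CSTF2 was the higher in every group (group means of 27.3 to 34.8 against 17.3 to 20.4). CPSF6 ran at about 0.5 of CPSF7, from -0.88 ± 0.03 in U2OS siCtrl to -1.1 ± 0.06 in U2OS-AsiSI siINTS11. PAPOLA and PAPOLG were level, with log2 ratios between -0.12 ± 0.02 in U2OS siINTS11 and 0.03 ± 0.01 in U2OS-AsiSI siCtrl. SCAF4 exceeded SCAF8 in every library, with log2 ratios from 0.44 to 0.64. RPRD1A stayed below RPRD1B, at -1.15 ± 0.04 and -1.15 ± 0.03 in the U2OS groups, -1.05 ± 0.01 in U2OS-AsiSI siCtrl and -1.22 ± 0.01 in U2OS-AsiSI siINTS11.

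Other genes of the pathway were taken from a list of 29, of which 25 were tested. In U2OS 8 rose and 7 fell, and in U2OS-AsiSI 6 rose and 8 fell, with medians of 0.01 and -0.04. Among all genes tested 34.5% rose and 32.4% fell in U2OS, and 35.4% rose and 32.6% fell in U2OS-AsiSI. With library totals 15 of the 25 rose and 3 fell in U2OS, and 15 rose and 5 fell in U2OS-AsiSI. On that scale 74.3% and 72.4% of the calls over all genes were higher. The partners of PNUTS were divided: the phosphatase genes PPP1CA (0.27 in U2OS and 0.37 in U2OS-AsiSI) and PPP1CC (0.18 and 0.12) rose and PPP1CB (-0.18 and -0.3) fell, while WDR82 and TOX4 passed in neither line. Of 7 other Pol II tail phosphatases, isomerases and readers 4 fell in each line, led by CTDSPL (-0.6 and -0.76), PHF3 (-0.45 and -0.5) and RPAP2 (-0.35 and -0.41). NKRF, a partner of XRN2, rose in both (0.53 and 0.28). Its effect differed between the lines by -0.28 (SE 0.08, edgeR adjusted p 0.0404), and that of the Sm gene SNRPF by -0.24 (SE 0.07, edgeR adjusted p 0.0377). These were the 2 of 25 genes lower in that difference (3.1% of 21521 genes were), and 0 were higher (0.762% of genes were). How the 2 calls fared in the alternatives is not given here. The cytoplasmic poly(A)-binding gene PABPC4 rose in both (0.38 and 0.39), and PABPC1 passed in neither (0.06 and 0.07). The Sm proteins shared by U7 and the spliceosome were divided. SNRPE rose in both lines (0.24 and 0.19), SNRPG passed in U2OS only (0.14 and 0.09) and SNRPB in U2OS-AsiSI only (0.04 and 0.16). SNRPF had 0.06 in U2OS, which did not pass, and fell in U2OS-AsiSI (-0.15, edgeR adjusted p 0.0126), and SNRPD3 had too few reads to be tested.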

How the data were processed

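Nascent RNA of 12 TT-seq libraries was analysed as 4 groups of 3, with names and numbers from the titles. Per the submitters' processing notes, reads passed through Trimmomatic 0.36, STAR 2.7, featureCounts and deepTools with hg38. The strand setting and the treatment of shared reads are not given in the sources used here. The deposited values are raw counts of reads over the whole span of each gene, per the file headers, and 0 count columns were left without a sample. Spike-in counts of the labelled yeast RNA were not used here, so total nascent RNA was not compared.

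Tests used the quasi-likelihood functions of edgeR 4.0.16 (R 4.3.3), two-sided, after filterByExpr and TMM, with robust glmQLFit and only the groups compared (all 12 libraries for the difference between lines). The Benjamini-Hochberg adjustment covered all genes tested, at a threshold of 0.05. SEs were derived from the fold change and F. In simulated data with 200 changed genes, 2-fold changes were recovered at 88.9% in the U2OS-AsiSI design (20158 genes), 92% in U2OS (20397), 72.7% for the difference between lines (21022), 88.5% between lines under siCtrl (19669) and 89% under siINTS11 (20553), and 3.1%, 7.7%, 5.3%, 4.1% and 6.6% of calls were false. In the same order, simulated 1.41-fold changes were recovered at 69.7%, 63.6%, 53.1%, 57.6% and 66%, and the typical member change was smaller still. With only 200 genes changed, the simulation does not test the choice of scale. Replicates differed beyond sampling noise (chi-square per degree of freedom 1.85 to 3.08), so all 12 were kept. Depth limits CASP8AP2 and FIP1L1 above all, and no molecular identifiers are named, so reads may repeat 1 molecule.

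Alternatives tried were scaling by library totals or by median-of-ratios factors, a stricter filter (mean count from 50 up) or none, a replicate block, DESeq2 1.42.0, thinning to the smallest library and leaving out each library. Genes named are INTS11, up to 5 members with the largest change each way past the threshold, fixed paralogue pairs, and other members by level, range and count. The members and lists were chosen with earlier results of these data known. Coordinates are those of the tables: 75.1% of 55378 symbols, and 13 of 34 members, have the same coordinates in GENCODE 29. Figures were drawn with matplotlib 3.10.9.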

Additional observations from a re-analysis of the deposited data

Results flagged for a closer look

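For 2 of the 34 genes the effect of siINTS11 differed between the lines by the interaction test. PPP1R10 had 0.73 (log2, U2OS-AsiSI minus U2OS, SE 0.14, edgeR adjusted p 0.00378), higher in 3 of 3 U2OS-AsiSI siINTS11 libraries than in the 9 others. RPRD1A had -0.23 (SE 0.06, edgeR adjusted p 0.0225), with 3 of 3 U2OS-AsiSI siINTS11 libraries below the 9 others, and this call was lost in 14 of 19 alternatives.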

How the results depend on the processing

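With library totals alone, members higher and lower after siINTS11 numbered 15 and 4 in U2OS-AsiSI (3 and 17 under TMM) and 16 and 3 in U2OS (4 and 18). Between lines they numbered 15 and 1 under siCtrl and 15 and 2 under siINTS11. Of all genes called, 72.4%, 74.3%, 67.4% and 62.8% were then higher, in that order. Genes called lower then numbered 4024 in U2OS-AsiSI, genes higher 10968 and lower 3799 in U2OS, and genes lower in the difference between lines 415, and INTS11 in U2OS-AsiSI turned to 0.06. Under the stricter filter (mean count from 50 up), members higher in U2OS-AsiSI numbered 5 and lower in U2OS 10. In the difference between lines the lower member count was 0 with median-of-ratios size factors, no filter, the stricter filter, thinned libraries and DESeq2 (7, 8, 8, 11 and 7 members with an unadjusted p under 0.05), and the higher count was 0 with DESeq2, which gave PPP1R10 no adjusted p. Genes higher there numbered 164, but 379 with no filter and 441 with the stricter one; genes lower numbered 668, but 270 with median-of-ratios factors, 291 with no filter, 217 with the stricter one, 254 with DESeq2 and 429 when thinned. DESeq2 called 5 members higher between lines under siINTS11. Replicate numbers did not pair the libraries (correlations of same-numbered deviations -0.108 to 0.137, median -0.015): with the replicate block genes higher and lower in the difference became 103 and 428, and members lower between lines under siINTS11 became 3. Leaving out 1 library gave 0 to 2 members lower, 66 to 237 genes higher and 163 to 709 genes lower in the difference, 1 to 3 members lower between lines under siCtrl, and 5 to 8 higher and 3 to 7 lower under siINTS11. The cause was not tested.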
